A study of Mus musculus with 5 samples.

Results

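The heat shock chaperones examined here were 10 genes, Hspa1a, Hspa1b, Hspa8, Hsph1, Dnajb1, Dnaja1, Hsp90aa1, Hsp90ab1, Hspd1 and Hspe1, chosen by symbol from a count table of 21289 genes. All 10 were in the table and all 10 were among the 14508 genes tested. Their messenger RNA was counted in CD45+CD64+ macrophages sorted from infarcted hearts of wild-type male mice of the C57BL/6JGpt strain, taken 7 days after the infarction. The 2 untreated samples came from infarcted mice without curcumol. The 3 curcumol samples came from infarcted mice given 30 mg/kg of this plant sesquiterpene by gavage once daily for 7 days. Ages and the number of mice behind a sample were not given in the labels, so the p-values below measure only the spread between these samples.

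Molecular chaperones bind unfolded protein and help it fold. HSP70 chaperones work in cycles of ATP hydrolysis that DNAJ (HSP40) co-chaperones start and nucleotide exchange factors such as HSP110 end, and they pass some clients on to HSP90. In the mitochondrial matrix the HSP60 ring and its HSP10 lid fold imported proteins. Some family members are made at all times and others are induced by the transcription factor HSF1 in heat or other proteotoxic stress, when HSF1 trimers bind inverted GAA units in promoters. In macrophages, as in other cells, tissue dissociation and sorting can themselves induce heat shock genes. Here Hspa1a, Hspa1b, Hsph1, Dnajb1 and Hsp90aa1 were classed as heat-inducible, Hspa8, Dnaja1 and Hsp90ab1 as constitutive, and Hspd1 and Hspe1 as mitochondrial.

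The upstream sequences of the HSP70 pair are shown because they show how alike the copies are, and those of other members because they carry the HSF1-type units. The RefSeq promoter table (GRCm38.p6) held entries for 7 members, all but Hspa8, Hsp90aa1 and Hsp90ab1. The windows searched were the 250 bases before each annotated start. Capitals mark GAANNTTC or TTCNNGAA, the 2 ways of joining a pair of inverted GAA units; each reads the same on both strands. The Hspa1b window lies at chr17:34959239-34959488 and the Hspa1a window at chr17:34972157-34972406, both on the minus strand, and the windows differed at 3 of 250 positions.

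Hspa1a: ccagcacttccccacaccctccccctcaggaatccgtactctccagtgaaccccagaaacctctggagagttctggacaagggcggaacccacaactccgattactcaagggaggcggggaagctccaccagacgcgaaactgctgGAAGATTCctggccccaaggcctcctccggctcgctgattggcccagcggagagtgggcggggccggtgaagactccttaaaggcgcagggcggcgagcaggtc

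Hspa1b: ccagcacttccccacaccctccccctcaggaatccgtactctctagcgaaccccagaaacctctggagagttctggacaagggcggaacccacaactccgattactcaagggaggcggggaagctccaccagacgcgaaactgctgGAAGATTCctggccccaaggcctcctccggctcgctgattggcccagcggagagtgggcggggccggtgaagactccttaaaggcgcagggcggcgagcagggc

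Each copy held GAANNTTC once, beginning 104 bases before the start. In the shared region between Hspe1 (plus strand) and Hspd1 (minus strand) the units ran on without a break, 4 in a row, within chr1:55088053-55088082. That run began 89 bases before the Hspe1 start and, read on the other strand, 144 bases before 1 of the 2 Hspd1 starts. Stretches of 30 bases around the matches of Hspe1, Hsph1 (chr5:149636351-149636380, minus strand) and Dnaja1 (chr4:40722333-40722362, plus strand, 1 of its 3 starts) read as follows.

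Hspe1: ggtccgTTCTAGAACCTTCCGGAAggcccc

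Hsph1: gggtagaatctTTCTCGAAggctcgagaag

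Dnaja1: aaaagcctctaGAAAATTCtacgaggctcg

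Either form was found for 6 of the 7 members, and neither form was found in the Dnajb1 windows. The 6 are not separate cases, as the HSP70 copies hold the same match and Hspd1 and Hspe1 share 1 stretch. Of all 27025 genes in the table, 14.5% held either form in any of their windows. Per window, 6.69% of 32851 held GAANNTTC, 7.17% held TTCNNGAA and 12.8% held either. A run of at least 3 alternating units, as in the Hspd1 and Hspe1 windows, was in 0.466% of all windows and in 0.514% of all genes. These matches describe letters, not binding.

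Libraries held 39768705 to 43315822 counts, but fewer genes were detected without curcumol (12243 and 12915) than with it (17078 to 18501). Macrophage markers were present throughout, with 11 of 11 markers counted in both groups and a summed level of 45331 to 45898 CPM untreated and 40728 to 47246 CPM with curcumol. Lyz2 was the largest part of that sum, and the curcumol libraries were all higher for 5 of the 11 (Mertk, Itgam, C1qa, C1qb and C1qc) and all lower for 3 (Cd68, Fcgr1 and Lyz2), with none past the threshold in edgeR. CPM are reads of a gene scaled to library size and by TMM, edgeR's factor for library composition. Summed levels of other cells' markers were higher with curcumol. The 12 neutrophil markers summed to 489 to 621 CPM untreated and 1742 to 3926 CPM with curcumol, with all curcumol libraries higher for 11 of 12, as for 29.5% of all tested genes. The 10 fibroblast markers (7 higher in all curcumol libraries) summed to 482 to 601 and 774 to 939 CPM, the 10 endothelial markers (9 higher) to 28.6 to 33.5 and 64.0 to 108 CPM, and the 12 cardiomyocyte markers (8 of 10 tested higher) to 28.9 to 66.2 and 118 to 134 CPM. Fn1 was the largest part of the fibroblast sum, at 549 and 427 CPM untreated and 600, 734 and 371 CPM with curcumol, and its groups overlapped. The neutrophil markers Ly6g and Camp and the endothelial markers Cdh5, Tie1, Tek, Flt1 and Cldn5 had no count in either untreated library, nor had the fibroblast markers Lum and Pdgfra or the cardiomyocyte markers Myh7, Ttn and Ryr2. T and NK cell markers were also higher in sum, but only 1 of 9 tested was higher in all curcumol libraries. B cell markers (5 of 6 higher) were higher in sum too. Erythroid markers (3 of 5 lower and 1 higher) were lower in sum (37.5 to 80.2 against 12.9 to 25.4 CPM). The part of all these other cells in the results below was not tested. In such bulk samples fewer cells of a type and less RNA per cell cannot be told apart.

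The inducible HSP70 transcript was the chaperone with the clearest difference between the groups. Hspa1a (NCBI gene 193740), the main stress-inducible cytosolic HSP70, measured 95.5 and 106 CPM in untreated replicates 1 and 2, against 34.3, 26.1 and 33.1 CPM in curcumol replicates 1, 2 and 3. Every curcumol library lay below both untreated libraries, by a wide gap. Values are given below in the same order of replicates. Hspa1a fell 3.23-fold with curcumol (log2 fold change -1.69 ± 0.19 SE, 95% interval -2.16 to -1.22, edgeR quasi-likelihood adjusted p = 0.0464). It was the only 1 of the 10 chaperones past the threshold, and 1 of 20 genes that passed downward, 0.138% of those tested, while 0.207% passed in either direction. The call ended with each curcumol replicate left out in turn (adjusted p = 0.0954, 0.104 and 0.106 without replicate 1, 2 and 3), with total counts as the scaling (0.0560) and with the replicate number as a block (0.149). Adjusted p was 2.70e-12 with DESeq2, and log2 fold changes over 13 alternatives ranged from -1.76 to -1.51.

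Its near-identical copy Hspa1b (NCBI gene 15511) was counted at 1.47 and 3.50 CPM untreated and at 0.550, 0.886 and 0.869 CPM with curcumol. These groups did not overlap either, but the untreated libraries were 2.38-fold apart and the difference did not pass (log2 fold change -1.69 ± 0.87, edgeR adjusted p = 0.295). The value was -0.91 without untreated replicate 2 and -2.18 without untreated replicate 1. Of the 100-base windows of the longest coding Hspa1a transcript in GENCODE M21, 47.1% also occurred in Hspa1b, so reads from those stretches cannot be assigned to 1 copy. The 2 copies were therefore also summed. Together they stood at 97.0 and 109.5 CPM untreated and at 34.9, 27.0 and 34.0 CPM with curcumol, a fall of 3.23-fold (-1.69 ± 0.19, edgeR adjusted p = 0.0464) that lost its call in the same alternatives as that of Hspa1a. Hspa1a held 3769 and 4144 of the 3827 and 4281 summed untreated counts, and 1436, 1151 and 1409 of 1459, 1190 and 1446 with curcumol. The sum therefore repeats the Hspa1a result. How shared reads were counted is not known, and any that were dropped are missing from the sum too.

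Hspa8, the constitutive HSC70 that also uncoats clathrin vesicles, was the most abundant chaperone. It stood at 2187 and 2182 CPM untreated and at 1558, 1214 and 1354 CPM with curcumol. All curcumol libraries were lower, a log2 difference of -0.67 ± 0.17 that did not pass in edgeR (adjusted p = 0.0756) and did in DESeq2 (adjusted p = 0.00122) and limma-voom (adjusted p = 0.0341), which called 16.9% and 11.4% of all genes they tested. In Hspa8, 62.8% of 100-base windows also occurred in transcripts of other annotated loci, mostly pseudogenes that have no row in the count table under those names. The effect of such shared reads on its count was not tested.

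**Figure D1:**
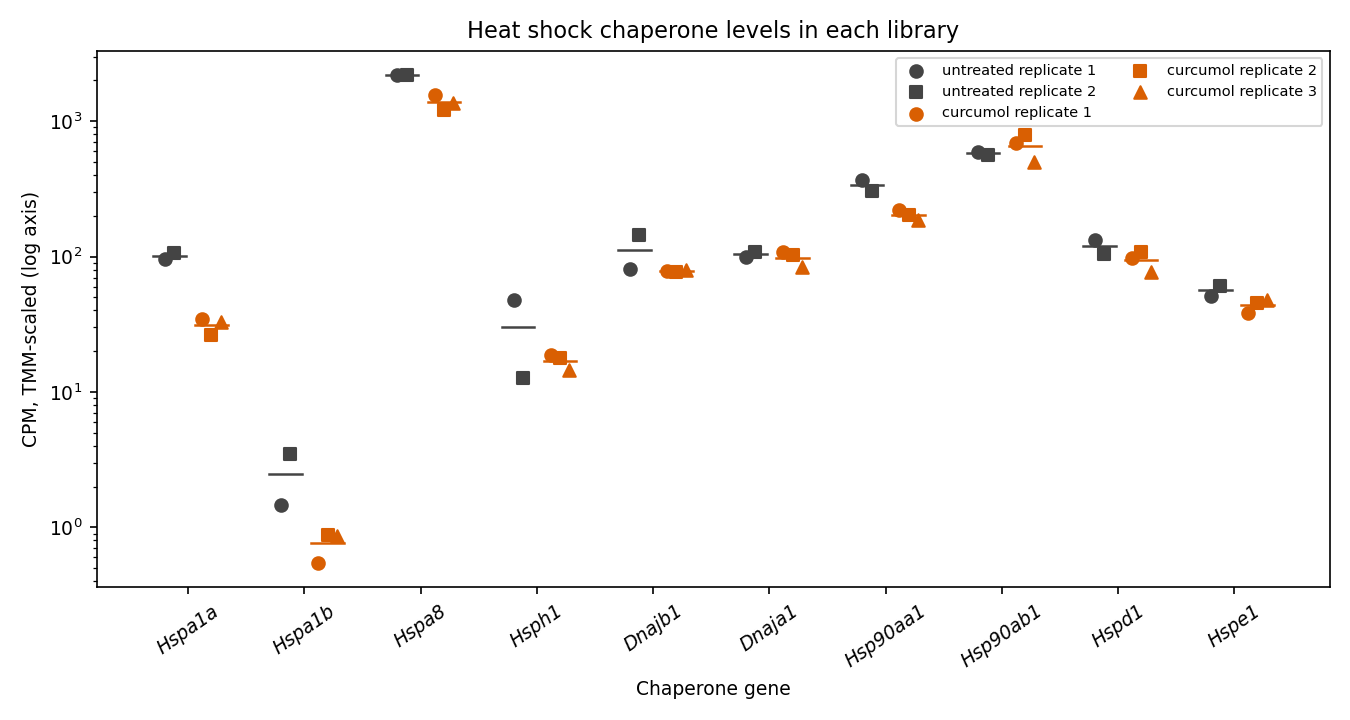
Levels of the 10 chaperones in each library, as TMM-scaled CPM on a log axis, with untreated libraries in grey, curcumol libraries in orange and group means as horizontal lines. Hspa1a shows the widest gap between groups, 95.5 and 106 CPM against 26.1 to 34.3 CPM, while Hsph1 and Dnajb1 are spread between the 2 untreated libraries.

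Hsph1, the HSP110 that releases ADP from HSP70, differed more between the untreated libraries than between groups. It stood at 48.1 and 12.6 CPM untreated, 3.81-fold apart, and at 18.9, 17.7 and 14.4 CPM with curcumol. The curcumol values lay between the 2 untreated values (log2 difference -0.84 ± 0.53, edgeR adjusted p = 0.403). The sign rested on 1 library: the log2 difference was 0.44 without untreated replicate 1 and -1.48 without untreated replicate 2 (edgeR adjusted p = 0.00435).

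The HSP40 co-chaperones stimulate the ATPase of HSP70. Dnajb1, the heat-inducible one, stood at 80.4 and 144 CPM untreated and at 78.8, 77.4 and 79.4 CPM with curcumol. The curcumol libraries were within 1.03-fold of each other and next to untreated replicate 1, and the difference did not pass (log2 -0.51 ± 0.26, edgeR adjusted p = 0.280). It was -0.01 without untreated replicate 2, and -0.87 with a call without untreated replicate 1 (edgeR adjusted p = 0.0328). Dnaja1, the constitutive one, stood at 99.1 and 109 CPM untreated and at 109, 102 and 83.2 CPM with curcumol, groups that overlapped fully (-0.08 ± 0.18, 95% interval -0.52 to 0.35, edgeR adjusted p = 0.838). Its sign turned with total counts as the scaling (0.10).

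The cytosolic HSP90 pair matures kinases and steroid receptors, and the values of its members had opposite signs. Hsp90aa1, the heat-inducible isoform, stood at 369 and 303 CPM untreated and at 219.6, 204 and 185 CPM with curcumol. All curcumol libraries were lower, and the log2 difference of -0.73 ± 0.17 did not pass in edgeR (adjusted p = 0.0689) but did in DESeq2 (adjusted p = 0.00111), in limma-voom (0.0403) and without untreated replicate 2 (0.0397). Of its 100-base windows 47.5% also occurred in other annotated loci, again mostly pseudogenes without a row of their own. Hsp90ab1, the constitutive isoform, stood at 596 and 559 CPM untreated and at 694, 790.1 and 497 CPM with curcumol. Curcumol replicate 3 lay below both untreated libraries and the other two above them, with a log2 difference of 0.19 ± 0.22 (95% interval -0.35 to 0.73, edgeR adjusted p = 0.670). Hsp90ab1 was the only 1 of the 10 chaperones with a positive value.

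The mitochondrial chaperonin genes share an upstream region, shown above, and had similar small differences. Hspd1, the HSP60 ring subunit, stood at 133 and 105 CPM untreated and at 97.7, 109 and 77.0 CPM with curcumol, which overlap (log2 -0.33 ± 0.21, edgeR adjusted p = 0.402). Hspe1, the HSP10 lid, stood at 51.5 and 61.0 CPM untreated and at 38.1, 45.3 and 47.6 CPM with curcumol. Its groups did not overlap (-0.36 ± 0.20, edgeR adjusted p = 0.321) but did once CPM were scaled by total counts.

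Across the 10 chaperones the median log2 fold change was -0.59, beside 0.15 over all tested genes, and 9 of 10 values were negative (8 of 10 with total counts as the scaling, under which Dnaja1 turned positive). The groups did not overlap, with curcumol lower, for 6 of 10 (Hspa1a, Hspa1b, Hspa8, Dnajb1, Hsp90aa1 and Hspe1), as for 14.9% of all tested genes. With CPM scaled by total counts they did not overlap for 4 of 10, without Dnajb1 and Hspe1, and for 9.31% of all tested genes. No chaperone had all curcumol libraries higher, as 29.5% of all tested genes did. That share and the median of 0.15 include genes of low count, many of which had no count untreated. In a fit of abundant genes alone (average log2 CPM of at least 5) the median over genes was -0.00488. Most of the chaperones are well counted, so all tested genes are not a background of like abundance. The median over all genes itself moved to 0.34 under total counts, where the Hspa1a value was -1.51. A change of scaling alone shifts the values of all genes by nearly the same amount. The distance of Hspa1a from the median gene therefore had to stay about the same and is no test of its difference.

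**Figure D2:**
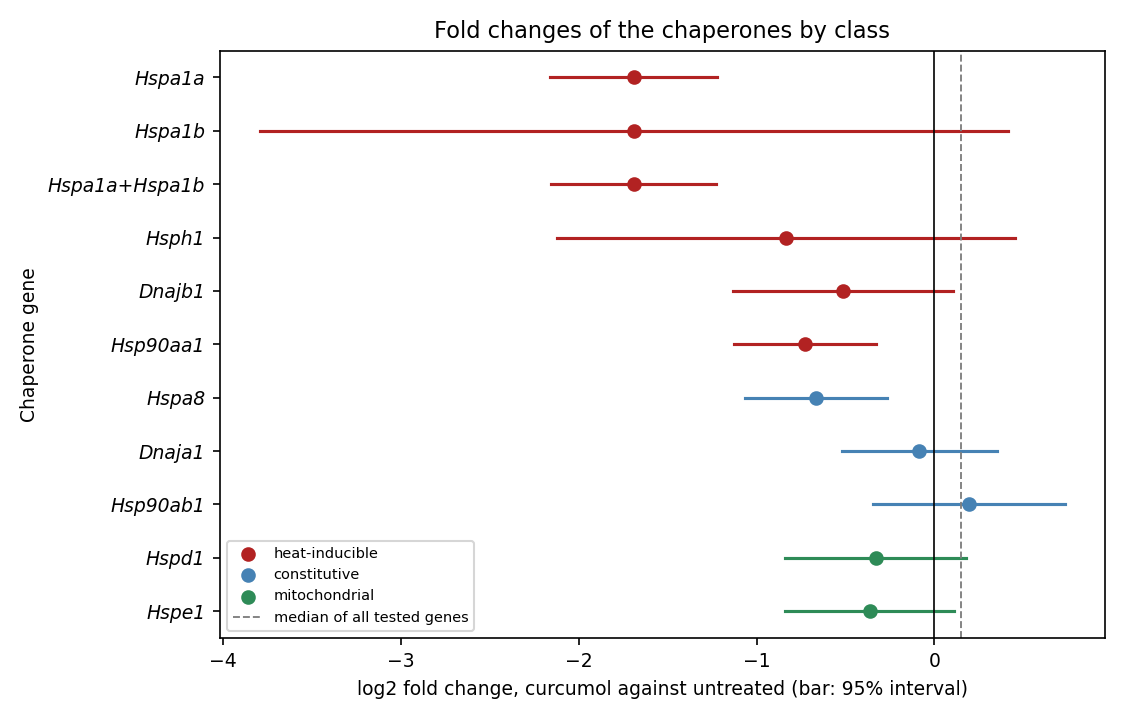
Log2 fold changes of curcumol against untreated (points) with 95% intervals (bars) from the edgeR fit over all genes, coloured by class, for each chaperone and for the summed HSP70 copies. Intervals of Hspa1a, the sum, Hsp90aa1 and Hspa8 lie wholly below 0, those of Hspa1b and Hsph1 are the widest, and the dashed line marks the median of all tested genes at 0.15.

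Heat-inducible and constitutive partners were then set against each other within each library, which does not depend on how libraries are scaled to each other. For each 100 Hspa8 reads there were 4.43 and 5.02 reads of Hspa1a plus Hspa1b untreated and 2.24, 2.23 and 2.51 with curcumol. The share was lower in all 3 curcumol libraries, by 2.03-fold (log2 ratio -4.41 ± 0.13 SD, n = 2, against -5.43 ± 0.10 SD, n = 3; exact permutation p = 0.1, two-sided, the smallest that 2 against 3 samples allow). The inducible HSP70 was thus lower relative to a partner that was itself lower.

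For each 100 Hsp90ab1 reads there were 61.9 and 54.2 Hsp90aa1 reads untreated and 31.6, 25.9 and 37.2 with curcumol. All 3 curcumol values were again lower, by 1.85-fold (difference of log2 ratios -0.89, exact permutation p = 0.1, two-sided). In the HSP40 pair, for each 100 Dnaja1 reads there were 81.1 and 132 Dnajb1 reads untreated and 72.6, 75.7 and 95.4 with curcumol, and the groups overlapped (difference -0.36, exact permutation p = 0.3, two-sided). In the mitochondrial pair there were 258 and 172 Hspd1 reads for each 100 Hspe1 reads untreated and 256, 240 and 162 with curcumol, also overlapping (difference 0.03, exact permutation p = 1, two-sided). Adjusted over the 4 pairs the p-values were 0.2, 0.2, 0.4 and 1. None of the 4 tests could pass a threshold of 0.05 in this design.

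**Figure D3:**
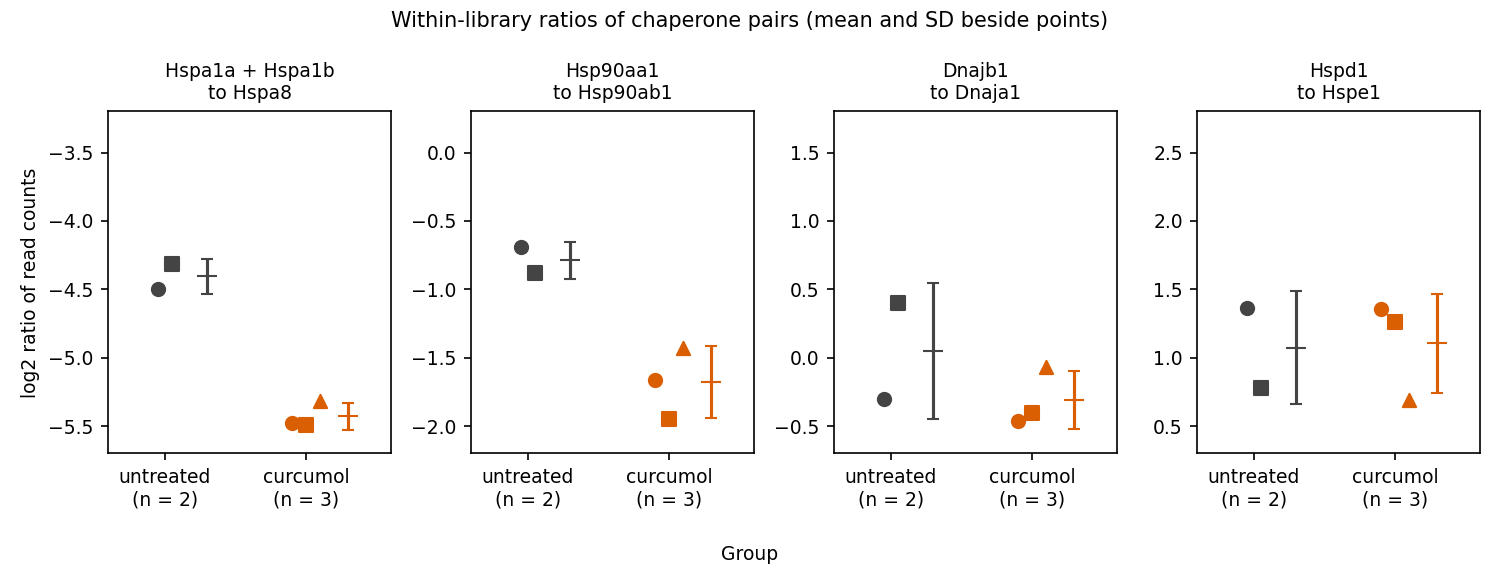
Log2 ratio of read counts within each library for 4 chaperone pairs, with untreated libraries in grey, curcumol libraries in orange, and the mean and SD of each group beside its points; all panels span the same range of log2 units. The groups are apart for the HSP70 pair (-4.41 against -5.43) and the HSP90 pair, and overlap for the HSP40 and mitochondrial pairs.

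Levels were compared between genes as CPM per kilobase of the longest coding transcript in GENCODE M21. In untreated libraries the order was Hspa8 (912 ± 1.69 SD, n = 2), Hsp90ab1 (229 ± 10.6), Hsp90aa1 (102 ± 14.3), Hspe1 (72.7 ± 8.72), Hspd1 (49.0 ± 8.12), Dnajb1 (37.4 ± 15.0), Hspa1a (34.0 ± 2.50), Dnaja1 (18.5 ± 1.22), Hsph1 (7.98 ± 6.60) and Hspa1b (0.887 ± 0.513). Hspd1 and Dnajb1, and Dnajb1 and Hspa1a, overlapped between libraries and cannot be ordered. With curcumol the order was the same except for Hspa1a (10.5 ± 1.49 CPM per kilobase, SD, n = 3), which stood below Dnaja1 (17.4 ± 2.35) in all 3 libraries and above it in both untreated libraries, and Hsp90aa1 (61.8 ± 5.30) overlapped Hspe1 (56.4 ± 6.43). The constitutive genes Hspa8 and Hsp90ab1 were the most abundant in both groups. Read loss in shared stretches and the choice of transcript bear on these levels.

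The wider network of 117 genes (115 in the table, 112 tested) was listed by role. None of the 112 passed in edgeR's quasi-likelihood test over all genes, while DESeq2 called 22 and limma-voom 10, beside 16.9% and 11.4% of all genes those tools tested. At an unadjusted p under 0.05, 19 were lower (against 6.51% of all tested genes) and 6 higher (against 18.1% of all tested genes). The median of the 112 was -0.12, beside 0.15 over all tested genes. With total counts as the scaling it was 0.06, beside 0.34, and the values of 48 in place of 71 genes were negative, so several of the small role medians below change sign with the scaling.

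Among the transcription factors, Hsf1, the master regulator of the heat shock response, stood at 61.6 and 53.2 CPM untreated and at 55.2, 43.2 and 37.2 CPM with curcumol, which overlap (log2 difference -0.34 ± 0.23, edgeR adjusted p = 0.422). Hsf2 was at 6.89 and 1.84 CPM untreated and 3.15, 6.77 and 5.10 CPM with curcumol (adjusted p = 0.918). Hsbp1, a small HSF1-binding protein, had 157 ± 11.2 CPM (SD, n = 2) and 189.8 ± 16.1 CPM (SD, n = 3; adjusted p = 0.350). Hsf4 had no count untreated, like 7145 of all 21289 genes, and 0.250 to 0.335 CPM with curcumol. That is at least 3.97-fold above a floor of 3 counts per untreated library. Tested genes of this kind passed the filter through the curcumol libraries alone. Neither Hsf1 nor Hsf2 passed in either direction.

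Other genes that HSF1 is known to induce had a median of -0.42 over 12 tested (-0.23 with total counts), with all curcumol libraries lower for 6 of them (against 14.9% of all tested genes), higher for none (against 29.5% of all tested genes) and no member past the threshold in edgeR. Zfand2a, a stress-induced regulator of the proteasome, stood at 61.3 and 64.2 CPM untreated and at 22.6, 25.8 and 34.1 CPM with curcumol (log2 difference -1.19 ± 0.23, edgeR adjusted p = 0.0651). The autophagy receptor Sqstm1 had a log2 difference of -1.06 ± 0.17 (adjusted p = 0.0637).

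The TRiC chaperonin folds actin and tubulin in the cytosol. All 9 of its genes had negative values (7 of 9 with total counts), with a median of -0.48, the lowest of the chaperone role lists, and the curcumol libraries were all lower for 6 (against 14.9% of all tested genes). None passed in edgeR (lowest adjusted p = 0.0954), and 5 were under an unadjusted p of 0.05 (against 6.51% of all tested genes in that direction). Tcp1 stood at 175 and 150 CPM untreated and at 122, 92.4 and 103 CPM with curcumol. The log2 difference of Cct7 was -0.48 ± 0.15 and that of Cct8 -0.59 ± 0.19. The summed TRiC level was 1686 and 1899 CPM untreated and 1231 to 1473 CPM with curcumol.

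In the HSP70 and HSP110 family 5 of 10 tested genes had negative values, led by Hspa5, the endoplasmic reticulum HSP70, at 874 and 856 CPM untreated and 635, 483 and 407 CPM with curcumol (log2 -0.77 ± 0.21, edgeR adjusted p = 0.0845). Hyou1, its exchange factor, was higher in all curcumol libraries, at 1.70 and 3.45 CPM untreated and 6.09, 11.4 and 4.70 CPM with curcumol (adjusted p = 0.252). Hspa12a had no count untreated (like 7145 of all 21289 genes), and 0, 0.977 and 0.258 CPM with curcumol. The other HSP90 genes were the mitochondrial Trap1, with a log2 difference of -0.59 ± 0.18 (adjusted p = 0.108), and Hsp90b1 of the endoplasmic reticulum, 491 ± 85.2 against 492 ± 150 CPM.

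Among 24 DNAJ genes the values went both ways, with 14 negative and a median of -0.03. Dnajb4, a relative of Dnajb1, stood at 43.5 and 32.7 CPM untreated and at 13.3, 11.8 and 16.6 CPM with curcumol, a log2 difference of -1.45 ± 0.28 (edgeR adjusted p = 0.0651). Its groups were thus wide apart where those of Dnajb1 nearly met. Dnajc13, a protein of endosomes, was higher in all curcumol libraries (13.0 ± 1.80 against 33.0 ± 7.43 CPM, adjusted p = 0.0683). Dnaja4 had no count untreated (like 7145 of all 21289 genes) and 1.27 to 1.43 CPM with curcumol, at least 17.4-fold above the floor.

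The small heat shock proteins hold unfolded protein without ATP, and several are muscle genes. Of 8 tested, 4 were negative, and all were low, none above the 13.5 CPM of Cryab in curcumol replicate 3. Hspb8 had no count untreated (like 7145 of all 21289 genes) and 1.03, 2.43 and 2.18 CPM with curcumol, at least 24.5-fold above the floor. Cryaa stood at 2.43 and 0 CPM untreated and at 0, 0.409 and 0.0235 CPM with curcumol, and Hspb9 likewise had counts in 1 of the 2 untreated libraries. The curcumol libraries, in which Hspb8 appeared, also held more detected genes and more cardiomyocyte marker RNA, as given above, whose part in this value was not tested.

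The HSP70 exchange and holding factors had a median of -0.17 over 12 tested, with Hspbp1 (78.3 ± 8.12 against 50.0 ± 4.71 CPM, edgeR adjusted p = 0.0845) and Bag1 (276 ± 10.3 against 209 ± 19.9 CPM, adjusted p = 0.170) lower in all curcumol libraries and Bag6 higher (6.85 ± 3.83 against 15.0 ± 3.74 CPM, adjusted p = 0.231). The HSP90 co-chaperones had -0.16 over 15 tested. Fkbp5, which is also a glucocorticoid-induced gene, stood at 18.5 and 10.9 CPM untreated and at 62.7, 453 and 71.1 CPM with curcumol (adjusted p = 0.0847), with curcumol replicate 2 far above the rest. The phosphatase Ppp5c and the ATPase activator Ahsa1 had log2 differences of -0.44 ± 0.20 and -0.36 ± 0.17. Prefoldin genes, which deliver clients to TRiC, had a median of -0.12 over 6 tested, led by Pfdn4 (-0.78 ± 0.36), Pfdn6 (-0.33 ± 0.20) and Pfdn5 (0.37 ± 0.34).

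Genes of the mitochondrial unfolded protein response, the program to which Hspd1 and Hspe1 also belong, had a median of 0.03 over 12 tested, with 6 negative. Its factor Atf5 had no count untreated (like 7145 of all 21289 genes) and 0.772 to 1.05 CPM with curcumol, at least 11.5-fold above the floor. The import subunit Timm17a (-0.61 ± 0.20) and the protease Yme1l1 (0.80 ± 0.33) went opposite ways (edgeR adjusted p = 0.123 and 0.204).

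**Figure D4:**
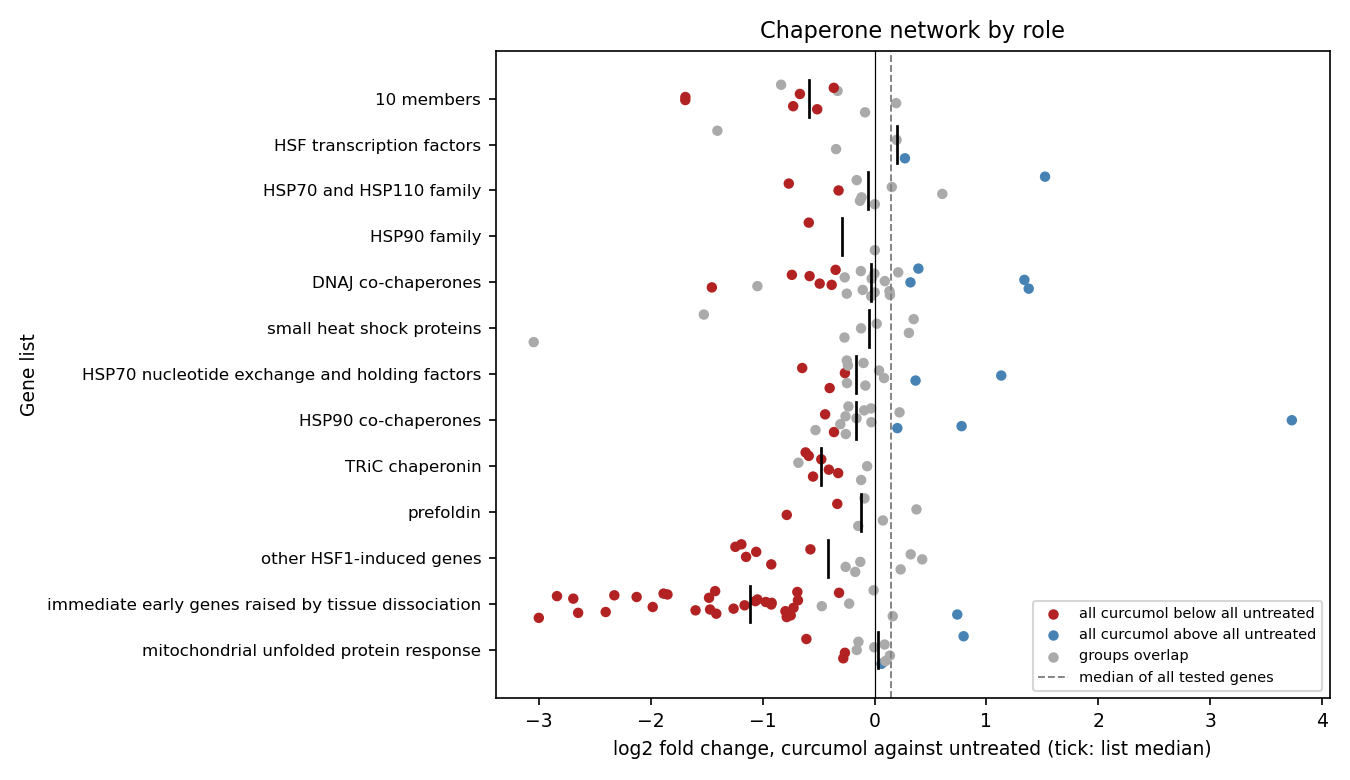
Log2 fold changes by role list (points, 1 per tested gene, coloured by whether the curcumol libraries are all lower, all higher or overlap the untreated ones) with list medians (black ticks) and the median of all tested genes (dashed). Genes with no count in the untreated libraries are not drawn but count in the medians; the medians of the immediate early list (-1.11), the 10 chaperones (-0.59) and TRiC (-0.48) lie farthest to the left.

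Immediate early genes are known to be raised by tissue dissociation together with heat shock genes. Of 34 tested 32 had negative values, with a median of -1.11, and the curcumol libraries were all lower for 29 of them (against 14.9% of all tested genes) and all higher for 1 (against 29.5% of all tested genes). In edgeR's test 1 fell, the ERK phosphatase Dusp5 (89.1 and 79.8 CPM untreated; 17.4, 11.6 and 18.9 CPM with curcumol; adjusted p = 0.0464). The transcription factors Atf3 (1652 ± 165 against 206 ± 104 CPM, SD) and Myc (113 ± 11.1 against 40.4 ± 6.68 CPM, SD) came next (edgeR adjusted p = 0.0523 for each), and 24 were lower at an unadjusted p under 0.05 (against 6.51% of all tested genes). Their summed level was 49967 and 51789 CPM untreated and 21860, 14754 and 25073 CPM with curcumol. Hspa1a stood at 34.3, 26.1 and 33.1 CPM in the same 3 curcumol libraries, with replicates 1 and 3 nearly equal. Such few libraries cannot show whether Hspa1a follows the sum. The part of cell handling in the Hspa1a difference was not tested.

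The 5 genes whose pattern over the 5 libraries came nearest to that of Hspa1a plus Hspa1b, among 6478 genes with an average log2 CPM of at least 4, were Plaur, Cd69, Tnip3, Plk3 and Nfil3. Nearness was the root mean square distance between log2 CPM values centred on each gene's mean, 0.09 for Plaur and 0.16 for each of the other 4. Cd69, an early activation marker of leukocytes, stood at 68.4 and 68.0 CPM untreated and at 22.0, 20.3 and 18.7 CPM with curcumol. Plk3, a stress-activated kinase, stood at 195 and 171 CPM untreated and at 49.8, 45.8 and 58.4 CPM with curcumol. The chaperones examined here were left out of these 6478 candidates, so none of them could be among the 5. Measured separately, the distances of Hspa8 and Hsp90aa1 to the same profile were 0.51 and 0.52. The 5 were picked for the smallest distances, so being farther than them says little. Ranked by distance over all genes of that fit, Hspa8 stood at 490 and Hsp90aa1 at 535. The other chaperones outside the HSP70 copies ranked from 1567 (Dnajb1) to 5871 (Hsp90ab1).

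**Figure D5:**
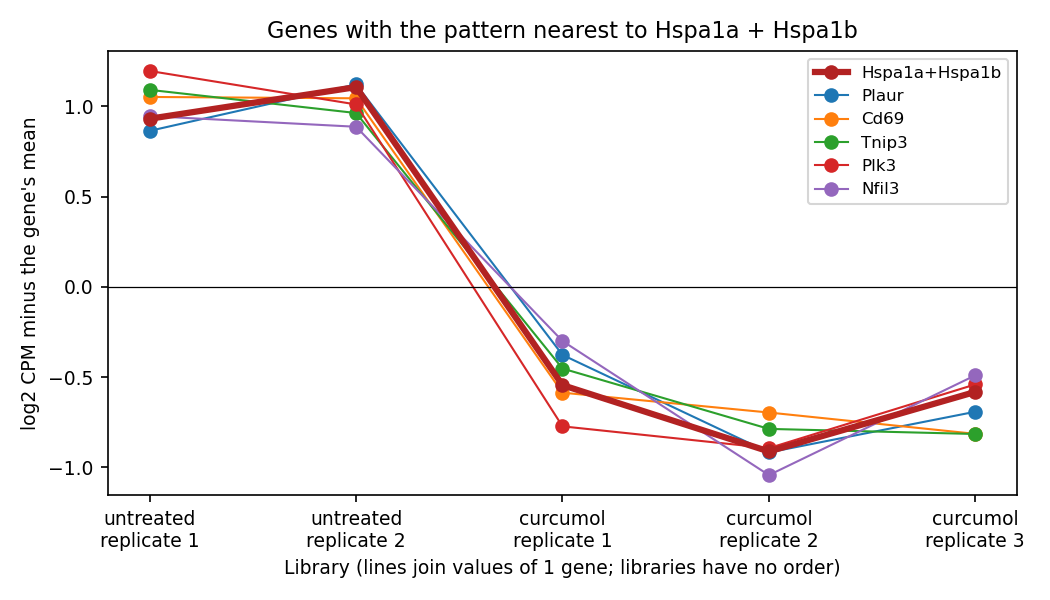
Log2 CPM minus each gene's own mean over the 5 libraries, for the summed HSP70 copies (thick red) and the 5 genes nearest in pattern; lines join the values of 1 gene. All 6 genes are above 0 in the untreated libraries and below 0 in the curcumol libraries, which follows from how the 5 were picked.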

How the data were processed

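Gene counts of 2 untreated and 3 curcumol samples were used. The authors deposited whole-number counts per gene, not normalized. The submitters' processing notes name fastp, HISAT2, Bowtie2 and HTSeq. Their versions, the genome build and the annotation: not given in the sources used here. Also, the labels and the series text name different library kits, so strandedness is not settled. Columns were tied to samples by title.

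Curcumol was compared with untreated in edgeR 4.0.16 (R 4.3.3): filterByExpr (minimum count 10), TMM factors, a quasi-likelihood fit on group with 3 residual degrees of freedom, two-sided tests, Benjamini-Hochberg adjustment over all 14508 genes and a threshold of 0.05. Each SE was the fold change divided by the root of F. Within-library ratios used a pseudocount of 0.5 counts and exact permutation tests. Alternatives were DESeq2 1.42.0, limma-voom (limma 3.58.1), RLE factors, total counts, 3 other filters, the replicate number as a block and leaving out each sample. No 2 libraries agreed within sampling noise (chi-square per gene 92.1 to 349.9). Folds against groups without counts used a floor of 3 counts per library and cover counting error only.

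The chaperones and the role lists were chosen with earlier results of these data known. Named were all 10 chaperones, Hsf1 and Hsf2, of each list any gene past the threshold or else up to 3 with the smallest p, and the 5 nearest patterns; 1 gene that this rule takes is not reported here.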

Additional observations from a re-analysis of the deposited data

How the results depend on the processing

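The count of genes past the threshold, 30 (10 higher, 20 lower), was 2656 with DESeq2 (1966 higher, 690 lower), 1661 with limma-voom, 416 without a filter, 179 among abundant genes (average log2 CPM of at least 5), 98 with a CPM of at least 1 in 2 samples and 10 with total counts, and 0 to 3531 with 1 sample left out (2950 without untreated replicate 1, 3531 without untreated replicate 2, and 1, 0 and 19 without curcumol replicate 1, 2 and 3; where edgeR called 0, 2383 were under an unadjusted p of 0.05). The count of chaperones past it, 1, was 3 with DESeq2 and limma-voom, 0 with total counts or the replicate block and 0 to 3 with 1 sample left out (2 and 3 without untreated replicate 1 and 2, 0 without any 1 curcumol replicate). For the wider network, 0 became 22 with DESeq2, 10 with limma-voom, 5 without a filter, 3 among abundant genes, 1 with a CPM of at least 1, and 0 to 16. Fits without 1 untreated sample assume that the lone sample varies like the curcumol samples.

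The summed HSP70 value of -1.69 was -1.51 with total counts and -1.75 with the replicate block, both without a call, and -1.77 to -1.58 with 1 sample left out. The change in its log2 ratio to Hspa8, -1.02, was -0.91 with Hspa1b alone. The Dnajb1 to Dnaja1 difference was -0.71 to -0.00795 with 1 sample left out. Hsph1 ranged from -1.48 to 0.44 likewise. Dnaja1 turned positive with total counts (0.10), among abundant genes (0.00381) and with the replicate block (0.0212), and ranged from -0.16 to 0.0197. The causes were not tested. Shared replicate numbers gave correlations of deviations of 0.02 and -0.03, so they are not taken as pairs.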

Other observations

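Bag3, an HSF1-induced exchange factor chosen here after its values were seen, stood at 18.6 and 46.2 CPM in untreated replicates 1 and 2 and at 25.7, 27.7 and 28.5 CPM with curcumol. Like Dnajb1 (80.4 and 144 CPM) and Hspa1b (1.47 and 3.50 CPM) it was higher in untreated replicate 2, while Hsph1 (48.1 and 12.6 CPM) was higher in untreated replicate 1. Hspa1a differed by 1.11-fold between the same 2 libraries.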
